A study of Mus musculus with 4 samples.

Results

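The mitochondrial genome of the mouse carries 37 genes, and all 37 were taken from the authors' deposited table as the rows whose GENCODE M21 symbol starts with mt-, out of 55450 genes. They comprise 13 mRNAs, 2 ribosomal RNAs and 22 transfer RNAs, and they are the whole annotation of chromosome M in that release. The RNA came from cultured mouse Th17 cells, CD4 helper T cells known for making IL-17. Cells that received a retroviral vector with a guide against Adarb1 (sgAdarb1) were set against cells that received the empty PSIN vector. ADAR2, the product of Adarb1, deaminates adenosines to inosines where RNA is double-stranded. The cells of both groups carried a Cas9 transgene and came from mice of 8 to 12 weeks, described as wildtype in the design text. Naive CD4 T cells were stimulated through CD3 and CD28 (antibodies at 0.25 and 1 µg/mL), transduced after 24 h, and cultured for 72 h with TGF-β at 0.3 ng/mL plus IL-6 at 20 ng/mL. Each of 2 donor mice gave 1 culture per group, so there were 2 cultures per group, and the control received no guide. RNA was depleted of ribosomal RNA before sequencing.

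Mitochondrial DNA is transcribed from both strands into long precursors that span nearly the whole circle. Transfer RNAs lie between most of the protein genes, and their excision releases the mRNAs and ribosomal RNAs. The mRNAs encode core subunits of respiratory complexes I, III and IV and of the ATP synthase, while the RNAs of the ribosome and the transfer RNAs serve translation inside the organelle. In the account below, a gene is called heavy-strand or light-strand by the strand that serves as its template. By the annotation, 28 of the 37 were heavy-strand genes (12 mRNAs, 2 ribosomal RNAs, 14 transfer RNAs) and 9 were light-strand genes (mt-Nd6 and 8 transfer RNAs).

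Every value below is a mean over the 4 libraries or a fold change between the groups, because the per-library columns of the table match no sample label and were not used. No value per culture can therefore be given, and library depths were not used here. The mean normalized count is the mean of counts divided by DESeq2 size factors. A positive fold change is read as higher in sgAdarb1. That order follows the design text, and the table itself names no numerator. The treatment tag of 2 of the 4 samples contradicts their titles. If the authors grouped by that tag, the fold changes would set replicate 2 against replicate 1. For Adarb1 itself the authors' deposited table gives 0.11 ± 0.12 (log2, SE), and the 95% interval runs from -0.13 to 0.35. In the authors' deposited table the 6 Th17 markers had means of 229 to 4826 and the 6 general CD4 T cell markers 2463 to 15286. Markers of other cells had lower means in the authors' deposited table: up to 414 for 4 B cell genes, 287 for 4 CD8 and NK genes, 66.8 for 5 mast cell genes, 20.6 for 6 myeloid and 20.3 for 4 erythroid genes, with Siglech and Hbb-bs listed at 0. Of these 23 markers of other cells, the mast cell proteases Cpa3 and Cma1 had an unadjusted p below 0.05, both on the negative side. Among the 6 Th17 markers the cytokine genes Il17a and Il17f had one too, with positive log2 fold changes of 0.70 and 1.11 in the authors' deposited table. Over all genes tested the share was 0.208%, none of the 4 had an adjusted p below 0.05 (DESeq2), and the part of other cells in the results was not tested.

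Several mitochondrial genes have near-exact copies in the nuclear genome, which bears on how reads can be assigned. On mouse chromosome 1 (mm10), 7 pseudogenes annotated between 24611535 and 24616197 followed the order of the mitochondrial genes from mt-Co1 to mt-Nd4. Mitochondrial and chromosome 1 coordinates added up to the same sum within 1 base for all 7, so the segment is collinear with positions 6381 to 11042 of the mitochondrial genome. Over 4149 aligned bases the 7 copies held 7 mismatches, an identity of 99.8%. Of the mismatches, 6 lay at the edge of Gm29216, the copy of the end of mt-Co1 (T1056A, C1057T, A1059G, A1060G, C1062A and A1066T, counted from the first base of mt-Co1). The remaining mismatch was T3C, counted from the first base of mt-Nd3. The other 5 copies, of mt-Co2, mt-Atp6, mt-Co3, mt-Nd4l and the first part of mt-Nd4, had no mismatch. These stretches are shown because the members' levels separate along them. The first 60 bases of mt-Nd3 (chrM:9459-9518) and of its copy Gm28438 (chr1:24613060-24613119, minus strand) read as follows from GENCODE M21, with the mismatch in capitals.
mt-Nd3: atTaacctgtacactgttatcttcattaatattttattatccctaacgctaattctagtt
Gm28438: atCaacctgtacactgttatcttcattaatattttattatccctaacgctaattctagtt

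A second, more diverged set of copies lies on chromosome 2, where Gm13340, Gm13341 and Gm13339 match mt-Co1, mt-Co2 and part of mt-Nd2 at 97.6%, 97.6% and 96.7% identity. Parts of mt-Nd5 have copies in Gm4076 on chromosome 13 and Gm11407 on chromosome 4, at 94.9% and 92.5%. The stretch of mt-Co2 from base 448 to 522 (chrM:7460-7534) is identical in Gm28661 on chromosome 1 (chr1:24615044-24615118) and differs from Gm13341 on chromosome 2 (chr2:22587453-22587527) at 7 bases, in capitals here. Both pseudogenes lie on the minus strand.
mt-Co2: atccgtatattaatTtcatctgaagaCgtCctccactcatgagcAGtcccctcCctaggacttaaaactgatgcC
Gm13341: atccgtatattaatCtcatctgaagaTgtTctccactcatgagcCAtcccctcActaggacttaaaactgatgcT
Gm28661: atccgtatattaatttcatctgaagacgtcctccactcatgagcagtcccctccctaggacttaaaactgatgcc

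Levels of the mRNAs formed 2 separate sets along this boundary. The 6 mRNAs lying wholly inside the stretch that chromosome 1 copies are mt-Co2, mt-Atp8, mt-Atp6, mt-Co3, mt-Nd3 and mt-Nd4l, and they had 7.51 to 410 mean normalized counts per kb, with a median of 15.9. The 5 mRNAs wholly outside it (mt-Nd1, mt-Nd2, mt-Nd5, mt-Nd6 and mt-Cytb) had 4398 to 19207 per kb, with a median of 10251. The median outside was 644 times the median inside, and the sets did not overlap. The 2 mRNAs that cross its ends, mt-Co1 and mt-Nd4, had 29081 and 4361 per kb. The 7 copies themselves had means from 13.3 (Gm28438) to 87.9 (Gm10925) in the authors' deposited table, with log2 fold changes from -0.57 ± 0.73 (Gm28439) to 0.23 ± 0.65 (Gm28437). Addition of the deposited means of the annotated nuclear copies brought the 6 inside to between 7.51 and 449 per kb, and the ratio of medians to 82.2. The submitters' processing notes name featureCounts, but the sources used here do not give its setting for reads with several best places. The part of such reads in these levels was not tested.

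Among the complex IV genes the contrast stood within 1 enzyme. Mt-Co1, mt-Co2 and mt-Co3 encode its 3 core subunits, which assemble into the same complex. Their means in the authors' deposited table were 44930 for mt-Co1 (chrM:5328-6872), 10.1 for mt-Co2 (chrM:7013-7696) and 13.4 for mt-Co3 (chrM:8607-9390). Of the 50-base windows of mt-Co2, 100% had an exact copy in an annotated nuclear transcript, against 99.9% for mt-Co3 and 51.1% for mt-Co1. The windows of mt-Co1 without a copy numbered 731. The window of mt-Co3 without one is a single window at its end, where the annotated pseudogene stops.

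The 2 ATP synthase genes, mt-Atp8 and mt-Atp6, overlap by 43 bases in different reading frames and had means of 1.53 and 7.43 in the authors' deposited table. Windows of mt-Atp6 had copies at 99.5%. Mt-Atp8 had no annotated copy (0 of 155 windows), although it lies between mt-Co2 and mt-Atp6, whose copies flank its place on chromosome 1. The sequence of chromosome 1 between the annotated pseudogenes was not analysed here.

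Complex I subunit genes spanned both sets. Means in the authors' deposited table were 18008 for mt-Nd1, 8121 for mt-Nd2, 143 for mt-Nd3, 5.63 for mt-Nd4l, 6010 for mt-Nd4, 18697 for mt-Nd5 and 2283 for mt-Nd6. Mt-Nd3 is the member inside the stretch with the highest mean, and its copy is the one with a mismatch in the first codon. Mt-Nd4l and mt-Nd4 overlap by 7 bases. In mt-Nd4, 62.2% of windows had a copy and 502 had none. Mt-Nd6, the only light-strand mRNA, had 4398 per kb, below the 10251 per kb of mt-Nd5, which it overlaps by 14 bases on the opposite strand. Mt-Cytb, the one complex III gene of the set, reached a level of 21973 in the authors' deposited table and no window with a copy.

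**Figure D1:**
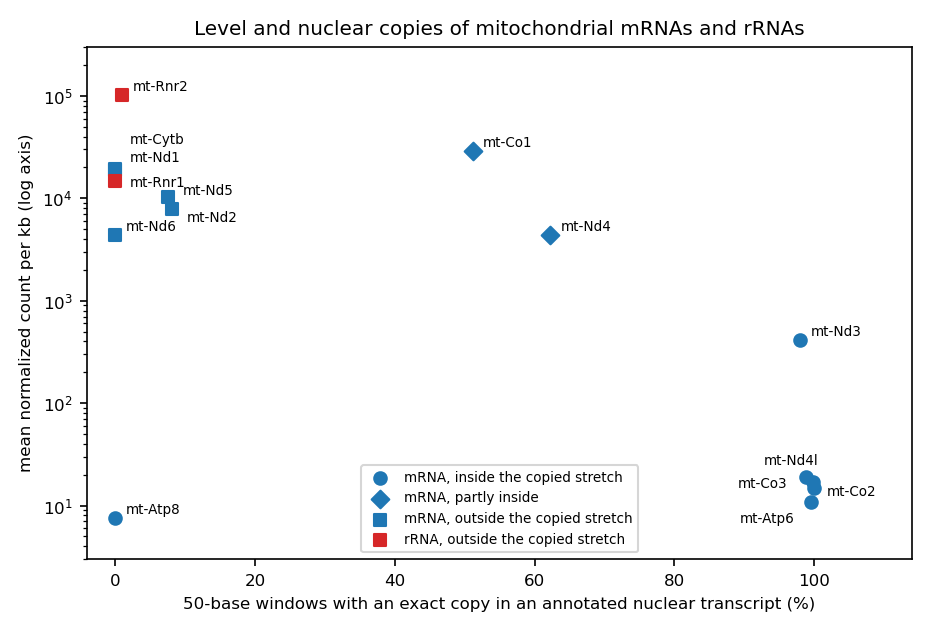
Mean normalized count per kb (log axis) against the percentage of 50-base windows with an exact copy in an annotated nuclear transcript, for the 13 mRNAs and 2 ribosomal RNAs; shapes mark whether the gene lies inside, partly inside or outside the stretch copied on chromosome 1. The members with over 97% of windows copied (mt-Co2, mt-Co3, mt-Atp6, mt-Nd4l and mt-Nd3) lie between 10.9 and 410 per kb. Mt-Atp8, with no 50-base window copied in an annotated transcript, lies at 7.51.

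The transcript ends showed how compact the genome is. In the annotated sequences, 3 of the 13 mRNAs (mt-Co3, mt-Nd4 and mt-Cytb) ended with 1 base past the last whole codon, a t, where the poly(A) tail is known to complete the stop codon. The other 10 ended in taa or tag. Start codons were atg in 9, and gtg in mt-Nd1, ata in mt-Nd2, att in mt-Nd3 and atc in mt-Nd5. These mRNAs were AT-rich, with GC contents from 31.9% to 41.1%, against a median of 49.1% over 14524 nuclear genes with a mean of at least 10.

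Ribosomal RNAs had the largest summed mean of the classes despite the depletion of ribosomal RNA, and mt-Rnr2 held most of that sum. Mt-Rnr2, the large-subunit RNA (chrM:1094-2675), reached a level of 159648 in the authors' deposited table and ranked number 3 of all genes. Mt-Rnr1, the small-subunit RNA (chrM:70-1024), reached 14242 in the same authors' deposited table. Per kb they stood at 100916 and 14913, whereas the ribosome holds them in equal number. How well each is removed by the depletion was not tested. All 37 genes together took 1.67% of the summed means, of which the 2 ribosomal RNAs took 0.982%, the mRNAs 0.679% and the transfer RNAs 0.00536%. The mRNA share counts the 6 mRNAs inside the copied stretch at their deposited levels. The part of reads with several best places in that share was not tested.

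Transfer RNAs were barely represented. Of 22, 4 were listed at 0 in the authors' deposited table (mt-Tf, mt-Ts1, mt-Td and mt-Tk), 7 had means above 0 and below 10, and 11 had a mean of at least 10. Mature transfer RNAs are short, folded and modified, and libraries made for long RNA are known to recover them poorly. The 5 highest were all light-strand genes: mt-Tp (proline) at 446, mt-Ty (tyrosine) at 163, mt-Te (glutamate) at 81.6, mt-Tc (cysteine) at 54.6 and mt-Tn (asparagine) at 38.5 in the authors' deposited table. The highest heavy-strand one was mt-Tl1, a leucine transfer RNA, at 28.0 in the authors' deposited table. The 8 light-strand genes had a median of 46.6 and the 14 heavy-strand genes 8.80, and the light-strand ones held 85.6% of the summed transfer RNA means. The ranges overlapped, since the light-strand genes mt-Tq and mt-Ts1 had 8.20 and 0 in the authors' deposited table. Within the light-strand cluster of 4 neighbours the level was highest at the gene transcribed first: mt-Ty had 2432 per kb, followed by mt-Tc at 827, mt-Tn at 543 and mt-Ta at 298. This is also their order of nearness to the abundant heavy-strand gene mt-Co1. The sources used here do not give the strand setting of the counting, so reads of the opposite strand may be among the light-strand counts. Their part was not tested.

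The sequences of the 3 highest transfer RNA genes and of the 3 in the copied stretch that were listed at 0 are given from GENCODE M21, as DNA in the transcript's direction. Capitals mark the anticodon, found as the expected triplet between a t and a purine in the middle of the gene. Mt-Tp lies at chrM:15356-15422, mt-Ty at chrM:5260-5326, mt-Te at chrM:14071-14139 and mt-Ts1 (serine) at chrM:6870-6938, all annotated on the minus strand. Mt-Td (aspartate) at chrM:6942-7011 and mt-Tk (lysine) at chrM:7700-7764 are on the plus strand.
mt-Tp: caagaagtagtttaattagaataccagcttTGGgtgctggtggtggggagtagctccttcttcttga
mt-Ty: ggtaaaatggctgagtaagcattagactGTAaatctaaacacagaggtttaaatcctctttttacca
mt-Te: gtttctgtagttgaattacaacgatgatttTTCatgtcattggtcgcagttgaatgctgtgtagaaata
mt-Ts1: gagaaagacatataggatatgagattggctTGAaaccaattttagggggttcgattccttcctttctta
mt-Td: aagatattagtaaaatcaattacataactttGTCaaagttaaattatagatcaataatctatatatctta
mt-Tk: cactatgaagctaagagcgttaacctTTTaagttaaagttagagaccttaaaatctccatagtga

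Of the 5 transfer RNA genes inside the copied stretch, 3 were listed at 0, and mt-Tg (glycine) and mt-Tr (arginine) had means of 12.6 and 21.3 in the authors' deposited table. Outside it 1 of 17, mt-Tf (phenylalanine), was listed at 0. None of the 22 shared a 50-base window with an annotated nuclear transcript. The search covered annotated transcripts only, and the 5 genes inside the stretch lie almost wholly between the parts that the annotated pseudogenes copy. It therefore could not show whether chromosome 1 holds copies of these 5. The sources used here do not say how reads that also touch a neighbouring gene were handled.

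The comparison of sgAdarb1 with empty vector asked which transcripts differ when the guide against Adarb1 is delivered. No member passed: 0 of the 33 with a fold change had a deposited adjusted p below 0.05 (DESeq2, Benjamini-Hochberg over 29383 genes), where the share over all genes tested was 0.0%. At an unadjusted p below 0.05 there was 1 member, mt-Nd1, where the share over all genes was 0.208%. Evenly spread p-values would put a proportion of 0.05 of the genes there, so the deposited p-values ran high over the whole table. The reason was not tested, and the lack of calls does not show that levels were equal. The most abundant mRNAs lay on the negative side and both ribosomal RNAs on the positive side, and the 95% interval spanned 0 in every case except mt-Nd1. The 95% interval lay within a log2 change of 1 in either direction for 12 of the 33, against 32.0% of all genes: both ribosomal RNAs, 8 mRNAs and the transfer RNA genes mt-Ty and mt-Tp.

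The mRNA class had 8 of 10 members on the negative side among those with a mean of at least 10, with a median log2 fold change of -0.25, where 49.5% of all 14547 such genes were negative and their median was 0.00. These 10 share their precursors and libraries and are not independent. In the authors' deposited table mt-Nd1, a membrane subunit of complex I, lay at -0.23 ± 0.10 (log2, SE), and its 95% interval ran from -0.42 to -0.04. The authors' deposited table lists 0.0172 as its unadjusted p and 1.00 as its adjusted p (DESeq2). Mt-Nd2 was at -0.19 ± 0.10 and mt-Co1 at -0.27 ± 0.21 in the authors' deposited table. Further along the genome, mt-Nd4 was at -0.32 ± 0.27, mt-Nd5 at -0.35 ± 0.28 and mt-Cytb at -0.30 ± 0.27 in the authors' deposited table. The light-strand mt-Nd6 was at -0.15 ± 0.32 in the authors' deposited table, and this sign turned once a linear dependence of fold change on GC and length was taken out. All these intervals other than that of mt-Nd1 spanned 0. The same correction took mt-Nd1 to -0.11, so that its interval, with the deposited SE, also spanned 0, and mt-Nd2 to -0.05. For mt-Nd6, mt-Nd1 and mt-Nd2 the correction is extrapolated, since their GC contents lie below the 5th percentile of the fitted genes, 39.1%.

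Of the mRNAs inside the copied stretch, mt-Nd3 had an interval within a log2 change of 1 in either direction, and the intervals of the other five were wider. Mt-Co2 was at -1.19 ± 1.58, mt-Co3 at 0.06 ± 1.21 and mt-Nd3 at 0.22 ± 0.36 in the authors' deposited table. Mt-Atp6, mt-Nd4l and mt-Atp8 had means below 10 and SEs of 1.57, 2.10 and 3.49 in the authors' deposited table. Without the members of which over 50% of windows have nuclear copies, 5 mRNAs remained, with a median of -0.23.

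**Figure D2:**
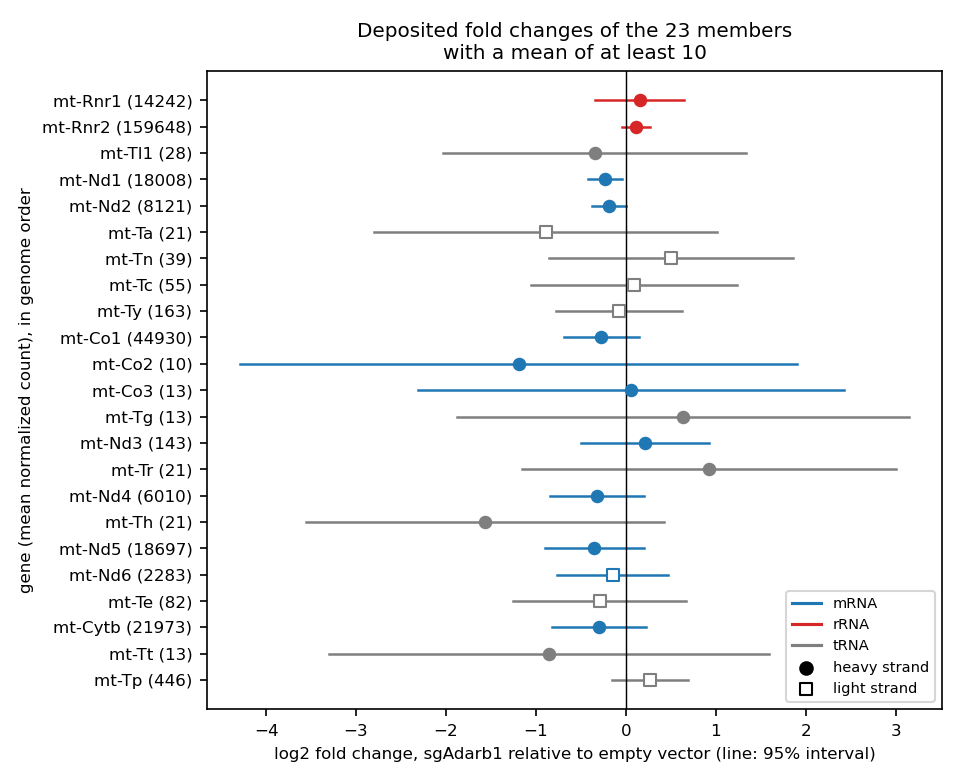
Log2 fold change of sgAdarb1 relative to empty vector, with its 95% interval, for the 23 mitochondrial genes with a mean normalized count of at least 10 (the mean stands beside each name), in genome order; colour gives the class, circles heavy-strand and squares light-strand genes. The interval of mt-Nd1 alone ends short of 0. Those of mt-Co2, mt-Co3 and the transfer RNA genes mt-Tl1, mt-Ta, mt-Tg, mt-Tr, mt-Th and mt-Tt reach beyond a log2 change of 2 on at least one side. Among the transfer RNA genes only mt-Ty and mt-Tp have intervals that stay within 1.

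For the ribosomal RNAs the authors' deposited table holds 0.11 ± 0.08 (mt-Rnr2) and 0.16 ± 0.25 (mt-Rnr1), and the intervals ran from -0.04 to 0.26 and from -0.34 to 0.65. Both precede mt-Nd1 on the same heavy-strand precursor, separated from it by mt-Tl1. The difference between the classes was not tested, because the covariance of their fold changes needs values per culture. Once the linear trend on GC and length was taken out, mt-Rnr2 moved to 0.24, and its interval no longer spanned 0 at the deposited SE. The ribosomal RNA median moved from 0.13 to 0.27 and that of the mRNAs from -0.25 to -0.14. The corrected interval of mt-Rnr2 leaves out the uncertainty of the fitted trend, which is extrapolated at low GC contents.

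Of the 11 transfer RNA genes with a mean of at least 10, 5 were positive and 6 negative, with a median log2 fold change of -0.08. The most abundant, mt-Tp, was at 0.27 ± 0.22 and mt-Ty at -0.08 ± 0.36 in the authors' deposited table, and mt-Ty turned positive once the trend on GC and length was taken out. The widest differences came from genes with few counts, mt-Th (histidine) at -1.56 ± 1.02 and mt-Tr at 0.92 ± 1.06 in the authors' deposited table. Between these lay mt-Tl1 at -0.35 ± 0.86, mt-Ta (alanine) at -0.89 ± 0.97, mt-Tn at 0.50 ± 0.69 and mt-Tc at 0.09 ± 0.58 in the authors' deposited table. The last 3 were mt-Te at -0.29 ± 0.49, mt-Tt (threonine) at -0.85 ± 1.25 and mt-Tg at 0.63 ± 1.28 in the authors' deposited table. Every one of these intervals spanned 0. The mean over the 11, weighted by their SEs, was 0.07, of the opposite sign to the median.

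By template strand, 10 of 16 heavy-strand genes with a mean of at least 10 were negative, with a median of -0.25, and 4 of 7 light-strand genes, with a median of -0.08. Weighted by SE, the means were -0.09 for the heavy strand and 0.06, again of opposite sign to its median, for the light strand. With the GC and length dependence taken out the medians were -0.14 and 0.11. Heavy-strand transfer RNAs had 3 of 5 negative and light-strand ones 3 of 6, and the difference between strands was not tested. It is unknown whether counting kept the strands apart, so counts of light-strand genes may include reads from the opposite strand. These values therefore group genes by annotated strand only.

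The standard errors split the abundant members. Of 9 with a mean of at least 1000, 6 had an SE at least 2 times the median SE of the 200 genes nearest in mean: 2.98 times for mt-Rnr1, 2.59 for mt-Co1, 2.87 for mt-Nd4, 3.41 for mt-Nd5, 2.71 for mt-Nd6 and 3.24 for mt-Cytb. For the other 3, mt-Rnr2, mt-Nd1 and mt-Nd2, the ratios were 0.955, 1.17 and 1.10. Among 3655 nuclear genes with such means, 24 reached a ratio of 2, which is 0.657%. In the DESeq2 model an SE that is large for its mean goes with a large spread between libraries of a group. Which libraries differ cannot be given without sample labels. Mt-Nd1 and mt-Nd5, close in mean at 18008 and 18697 in the authors' deposited table, had SEs of 0.10 and 0.28 in that table. The unadjusted p of mt-Nd1 was therefore the smaller, 0.0172 against 0.219, although mt-Nd5 had the larger difference. All the transfer RNAs with a mean of at least 10 had ratios between 0.980 and 1.13.

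**Figure D3:**
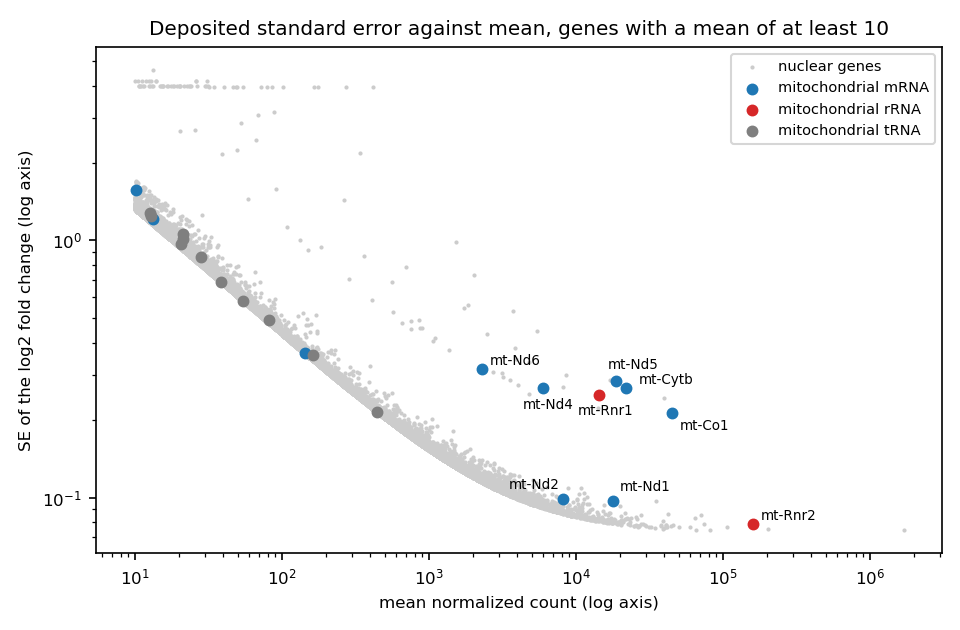
Deposited SE of the log2 fold change against mean normalized count (both log axes) for genes with a mean of at least 10, with nuclear genes in light grey and mitochondrial mRNAs, ribosomal RNAs and transfer RNAs in colour. Mt-Co1, mt-Nd4, mt-Nd5, mt-Nd6, mt-Cytb and mt-Rnr1 lie 2.59 to 3.41 times above the running median, while mt-Rnr2, mt-Nd1 and mt-Nd2 lie near it.

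Nuclear genes that serve the mitochondrial genome gave no call either. Most nuclear subunits of the respiratory chain lay on the side opposite to most mitochondrial mRNAs. Of 71, 63 were positive, with a median of 0.07, where 50.5% of all genes with such means were positive. These 71 share their libraries and are not independent. Their median SE was 0.16, larger than that median, and none had an unadjusted p below 0.05 (DESeq2). The 3 nuclear subunits of smallest p were Ndufa13, a complex I subunit, at 0.24 ± 0.13, Atp5d of the ATP synthase at 0.19 ± 0.11 and Cox5b of complex IV at 0.20 ± 0.13 in the authors' deposited table. Transcription and replication genes had 11 of 17 positive (median 0.03), with Polrmt, the gene of the mitochondrial RNA polymerase, at 0.20 ± 0.20, and the terminator family genes Mterf1a at -0.57 ± 0.55 and Mterf4 at 0.22 ± 0.29 in the authors' deposited table. RNA processing and stability genes were split 10 to 10 (median 0.01), among them Lrpprc, which stabilizes mitochondrial mRNAs, at -0.16 ± 0.12 in the authors' deposited table. Hsd17b10, a subunit of mitochondrial RNase P, was at 0.15 ± 0.15 and Fastk at 0.17 ± 0.21 in the authors' deposited table.

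Enzymes that modify transfer and ribosomal RNAs had 15 of 25 negative (median -0.03), with Nsun2, a methyltransferase, at -0.14 ± 0.10, the demethylase gene Alkbh1 at -0.26 ± 0.19 and Trmu, which thiolates transfer RNAs, at -0.32 ± 0.30 in the authors' deposited table. Synthetases and related genes that charge mitochondrial transfer RNAs had 12 of 22 positive (median 0.00), with Lars2 at -0.20 ± 0.22, Vars2 at 0.22 ± 0.24 and Gars at 0.08 ± 0.09 in the authors' deposited table. The biogenesis regulators had 4 of 6 positive (median 0.01), with Ppargc1b at 0.25 ± 0.40, Nrf1 at -0.08 ± 0.16 and Gabpa at 0.02 ± 0.13 in the authors' deposited table, and 1 of the 7 listed at 0. Across these 6 lists, 0 members had a deposited adjusted p below 0.05 and 0 an unadjusted p below 0.05 (DESeq2), where the shares over all genes tested were 0.0% and 0.208%.

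**Figure D4:**
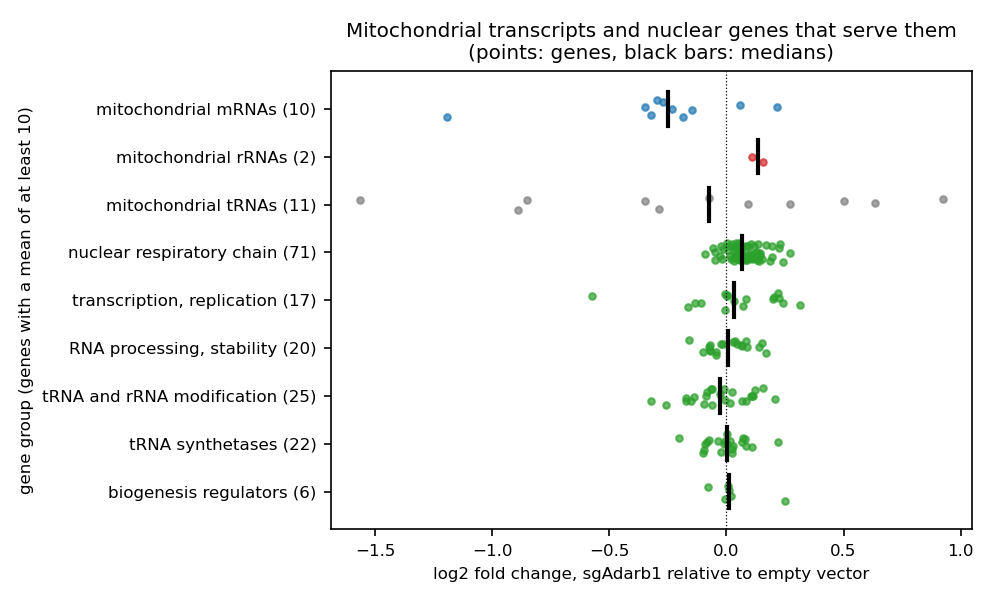
Log2 fold change of sgAdarb1 relative to empty vector for mitochondrial transcripts by class and for 6 lists of nuclear genes, with 1 point per gene with a mean of at least 10 and black bars at the medians; points are spread vertically at random. The mitochondrial mRNA median lies at -0.25 and that of 71 nuclear respiratory chain genes at 0.07.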

How the data were processed

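Per the submitters' processing notes, reads were processed with STAR 2.6.1a, featureCounts and DESeq2 1.18.1 on mm10; the sources used here do not give the annotation, strand setting, treatment of multiply mapping reads or model formula. Per the file headers, the authors deposited for each gene a mean signal (counts divided by size factors, averaged), a log2 fold change with its SE, a Wald score, and a p-value with its adjusted value. The 4 per-library columns match no sample label and were not used. All 55450 identifiers matched GENCODE M21.

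Python 3.11.15, pandas 2.3.3 and Biopython 1.88 were used. Levels were divided by gene length, since no member has an intron. Windows of 50 bases were searched on both strands in all other annotated transcripts, since no genome sequence was used, and copies were aligned globally. Class summaries use genes with a mean of at least 10. Calculations were tested on simulated data. P-values set each difference against its deposited SE, with the cultures as the authors grouped them. Whether the authors' model paired the donors is not stated in the sources used here.

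Members and lists were chosen with earlier results of these data known. By the rule for naming, every mRNA and rRNA and each tRNA with a mean of at least 10 is named, with the 3 genes of smallest p per nuclear list; other tRNAs are named where they stand at 0 or in a contrast. Of the list symbols, Prorp and Atp5pb were not matched, and the latter is an alias of the listed Atp5f1.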

Additional observations from a re-analysis of the deposited data

How the results depend on the processing

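No paired analysis was possible because no per-library column could be tied to a labelled sample. Hence edgeR and DESeq2 refits and omission of a culture were not run, and settings that need the genome sequence were replaced by annotated transcripts. Those replacements, the nuclear lists under other settings and the levels below were chosen after seeing the data. The count of 0 members stayed at 0 under every adjustment and threshold run. A stricter threshold could not raise that count, and no deposited adjusted p of a member came near the laxer one. The changes of threshold therefore add no support. Medians of classes, strands and lists moved by less than the median SE of their members in all settings. That yardstick is the SE of single genes, 0.86 for the tRNAs, and not the spread of a median. A change of sign can therefore fall within it. The tRNA median, -0.08, was positive with no minimum mean (0.07), with a minimum of 50 (0.01) and after removal of the trend on GC and length (0.11), and the light-strand median also was under the last (0.11). That trend is extrapolated here, since members have GC contents from 17.1% to 44.9%, and the 5th percentile of the fitted genes is 39.1%. It turned 2 single genes, mt-Ty (0.11) and mt-Nd6 (0.015). The ratio of mRNA levels outside to inside the copied stretch, 644 per kb, was 2052 without division by length, since the genes outside are longer, and 82.2 with nuclear copies added, by construction. Depth per library was not used, so the deposited SEs set what was detectable.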
